A study of Mus musculus with 10 samples.

Results

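The 10 genes Gfap, Vim, Nes, S1pr1, Gja1, Aqp4, Aldh1l1, Aldoc, Glul and Fabp7 mark astrocytes and radial glia. They were followed through m6A peak lists of mouse brain, in which 8513 genes had a peak in at least 1 list. The genes were taken by symbol, with earlier results of these lists known, and 9 of the 10 had a peak. The lists came from cortex and hippocampus of wild-type (WT) mice and of mice with a Mettl14 knockout (KO) driven by Nestin-Cre, both at postnatal day 5. Each list combines the polyadenylated RNA libraries of its genotype, 3 immunoprecipitated with an anti-m6A antibody and 3 input for WT, and 2 of each for KO. The labels also give a B27 and N2 culture medium, so direct use of tissue and use of cultured cells cannot be told apart. No label says whether the WT animals carried Cre or floxed alleles.

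N6-methyladenosine (m6A) is written on nuclear RNA by a complex of METTL3 and METTL14, and it influences splicing, translation and decay. Nestin-Cre acts in neural progenitors, so radial glia and the neurons, astrocytes and oligodendrocytes that arise from them belong to the targeted lineage. Radial glia are the progenitors of the developing cortex, span its wall with long processes, and turn to making astrocytes around birth. They carry the filament proteins nestin and vimentin and the lipid carrier FABP7, while maturing astrocytes add GFAP, gap junctions, water channels and enzymes of glutamate and folate metabolism.

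WT peaks were listed for nearly all of these genes, and few were met by a KO peak, at a share close to that of all WT peaks. A WT peak is called retained where it shares at least 1 exonic base with a KO peak of the same strand. WT peaks were listed for 9 of the 10 genes, against 34.3% of all 21900 protein-coding genes, and KO peaks for 3 of 10, against 12.2%. The shares over all genes include genes that may not be expressed in these samples. The 10 genes were chosen with earlier results of these lists known, so the contrast is not a finding about them. All 3 genes with a KO peak also had a WT peak, so they are 3 of 9, against 26.9% of all genes with a WT peak. The 9 genes held 19 WT peaks over 5478 exonic bases and 3 KO peaks over 453 bases. Of the WT peaks, 2 were retained, which is 10.5% (Wilson 95% interval 2.94 to 31.4), against 12.9% of all 15009 WT peaks. By gene, a retained peak was found in 2 of 9, against 20.6% of all genes with a WT peak. Counted from the KO list, 2 of 3 peaks lay over a WT peak, against 57.1% of all KO peaks. The 2 shares of retained peaks and genes lay close to those of the whole list, but rest on small overlaps. Asking for 10 shared bases, a setting chosen after seeing the data, left 1 of the 19 peaks retained, in 1 gene. The whole list changed little under that rule, from 1933 to 1902 retained peaks of 15009. Asking for 50% of both peaks left 0, where the whole list kept 6.26% of peaks and 10.9% of genes. Each genotype has 1 list and no value per library, so differences between genotypes carry no replicate error and were not tested. Library depth is unknown, and the intervals are those of counting peaks or genes and hold no biological spread. The lists hold no expression values. In a bulk sample, fewer cells of a type and less RNA per cell cannot be told apart, and either could change whether a peak is listed.

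**Figure D1:**
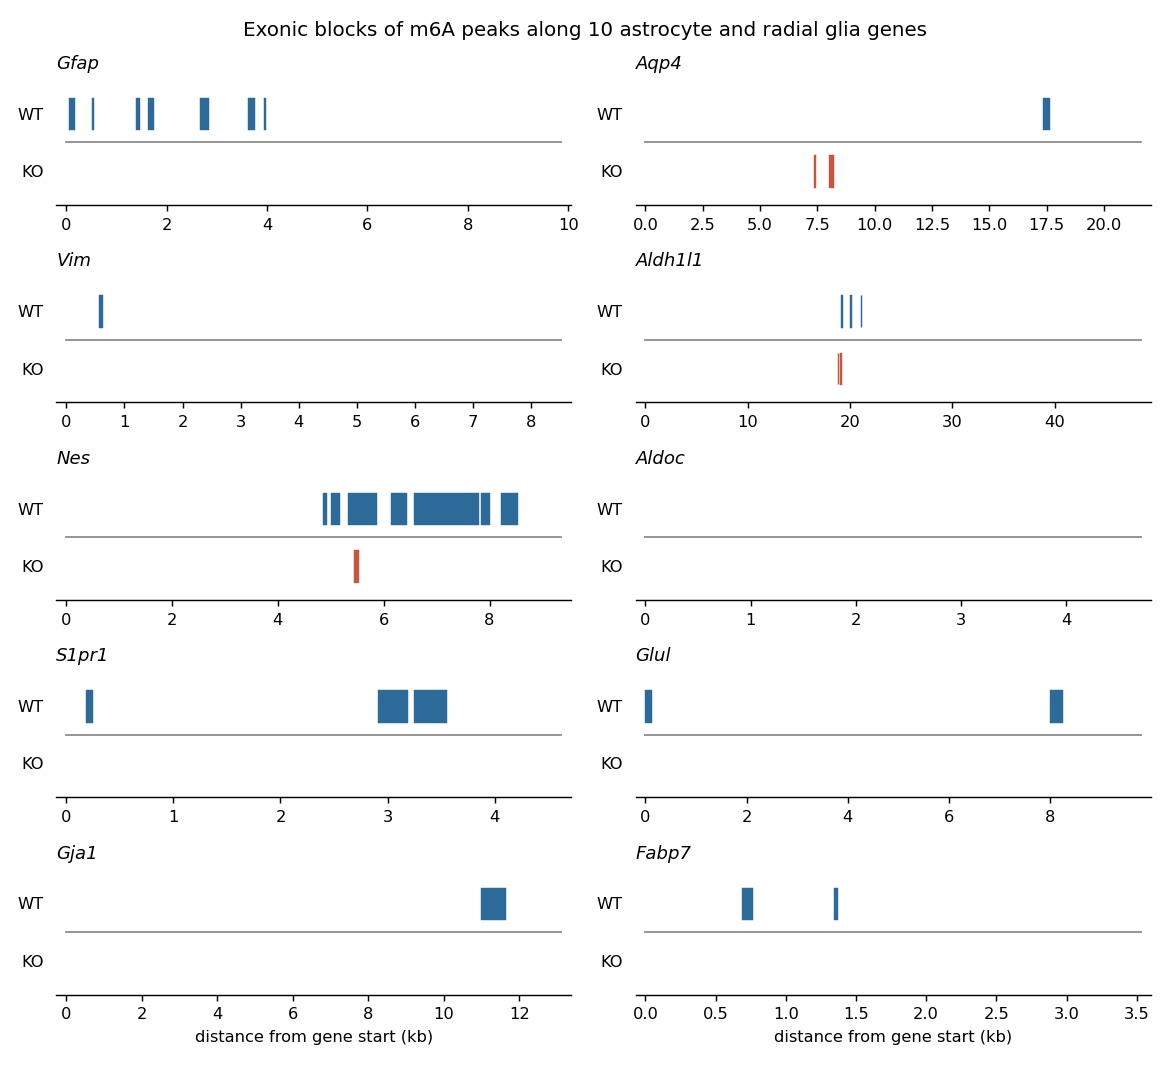
Exonic blocks of the peaks of each gene, plotted by distance from the gene start in kb along the direction of transcription, with WT peaks (blue) above and KO peaks (red) below the line that marks the gene span. WT peaks cover 9 genes, KO peaks lie in Nes, Aqp4 and Aldh1l1, and Aldoc is empty; outlines make the narrowest blocks slightly wider than scale.

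**Figure D2:**
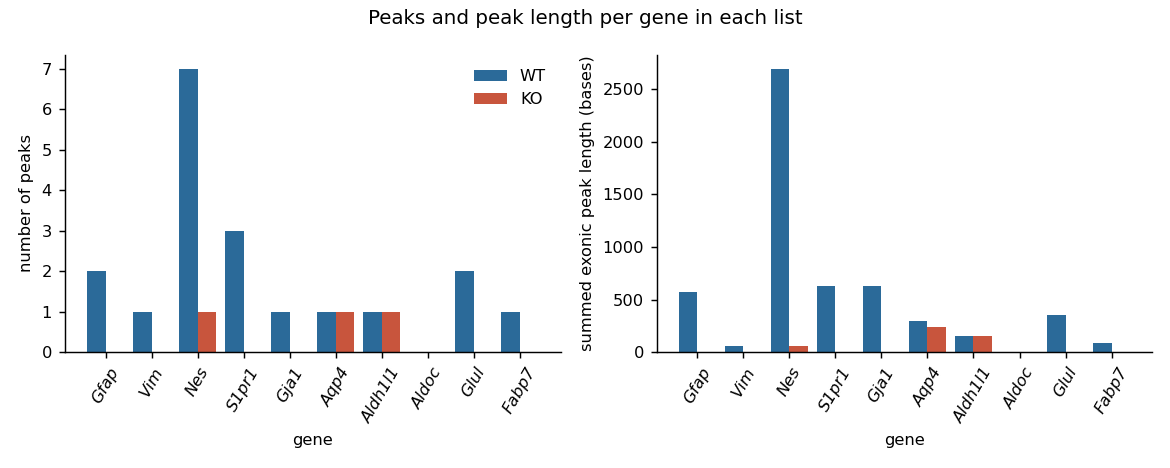
Number of peaks (left) and summed exonic peak length in bases (right) per gene in the WT (blue) and KO (red) list; each bar is the value of a single list, without error. Nes stands out with 7 WT peaks over 2696 bases, and the bars of both lists are of similar height only in Aqp4 and Aldh1l1.

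Among the 3 intermediate filament genes, Nes had the most WT peaks and the greatest summed peak length. Nes encodes nestin, a large filament protein of neural progenitors, and lies on chromosome 3 from 87971093 to 87980451 on the plus strand (build GRCm38, positions counted from 1). Its 7 WT peaks summed to 2696 exonic bases, 49.2% of the WT peak length of all 9 genes. Only 1.30% of genes with a WT peak had 7 or more, and 0.765% had as much or more peak length. All 7 peaks lay in the distal part of the gene, from 87975939 to 87979614, and covered 73.3% of this stretch of 3676 bases. Gaps between them were 59 to 268 bases. The stretch began 4846 bases after the gene start and ended 837 bases before the gene end. Most of the nestin coding sequence is known to lie in a long last exon. The exon borders were not used here, so the peaks are placed by gene span alone.

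The 7 Nes peaks differed widely in strength. The widest, 1196 bases from 87977672 to 87978867, had a deposited p-value of 1e-212 and rank 1445 of the 15009 WT peaks. Next came the peak from 87977224 to 87977523 (300 bases, p-value 7.9e-64). Widths of 150 and 299 bases and p-values of 4e-46 and 2e-45 belonged to the peaks at 87976089 to 87976238 and at 87979316 to 87979614. These 3, like the widest, were stronger than the median of the WT list, which had a p-value of 1e-41. The peaks at 87975939 to 87975999 (61 bases, 7.9e-35) and at 87978927 to 87979077 (151 bases, 7.9e-11) were the weaker end. The remaining peak, of 539 bases from 87976417 to 87976955, had a p-value of 1.3e-42, slightly stronger than the median.

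This 539-base Nes peak was the one met by a KO peak. The KO peak covered 61 bases, from 87976537 to 87976597, beginning 120 bases inside the WT peak and covering 11.3% of it. Its p-value was 8.5e-08, and 94.9% of the KO list was as strong or stronger. A width of 61 bases is also near the lower limit of the list, since the narrowest KO peak on 1 block had 59 bases. From WT to KO, the listed peak length of Nes went from 2696 to 61 bases, or 2.26% of the WT length. The strongest Nes peak had no KO peak nearer than 1074 bases.

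**Figure D3:**
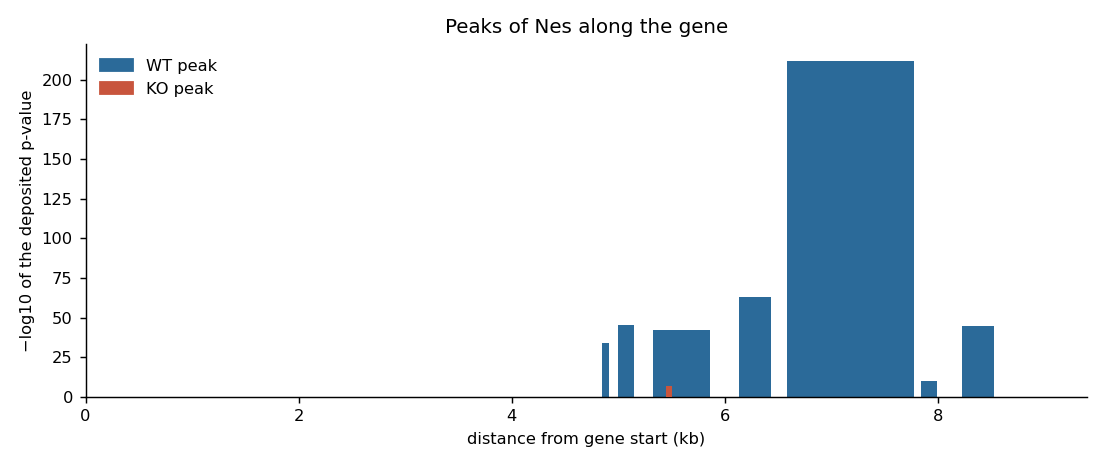
Peaks of Nes along the gene, with distance from the gene start in kb on the horizontal axis and −log10 of the deposited p-value as bar height; bar width is the exonic width. The 7 WT peaks (blue) fill the distal part of the gene, and the KO peak (red) is low, narrow and inside the third WT peak.

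The same counts as Nes, 7 WT peaks with 1 retained and 1 KO peak, were found in 4 other genes. Nearest in WT peak length were Tshz1, a zinc finger homeobox gene (2194 bases), the zinc finger gene Zc3h4 (2163 bases) and Celsr2, an adhesion receptor gene of the cadherin family (1743 bases). In Tshz1 and Celsr2 the KO peak was also 61 bases wide, and in Zc3h4 it measured 390 bases. The likeness is one of counts in these lists and rests on 1 list per genotype.

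Gfap encodes the defining filament protein of astrocytes and lies on the minus strand of chromosome 11, from 102887336 to 102897200. It had 2 WT peaks and no KO peak. The upstream peak, from 102897050 to 102897140 (91 bases, p-value 1e-11), began 60 bases after the gene start. It belonged to the weaker end of the list, with 86.2% of WT peaks as strong or stronger. The downstream peak spread over 6 exonic blocks from 102893247 to 102896691, which from 5′ to 3′ measured 26, 61, 96, 162, 126 and 9 bases. Its 480 exonic bases had a p-value of 7.9e-71, and 34.3% of WT peaks were as strong. No peak was listed in the distal part of Gfap, beyond 3954 bases from its start. Vim, which encodes the vimentin shared by radial glia, vessels and meninges, lies on chromosome 2 from 13574311 to 13582826. It had 1 WT peak of 60 bases, from 13574873 to 13574932, beginning 562 bases after the gene start, and no KO peak. This was among the narrowest WT peaks, as 99.9% were as wide or wider, and its p-value of 2e-24 ranked 9850. The 3 filament genes therefore differed in where their peaks lay. Peaks were distal in Nes, proximal in Vim and in the proximal part in Gfap.

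The 3 membrane protein genes held 5 WT peaks and 1 KO peak, which lay apart from them, so 0 of the 5 were retained. S1pr1 encodes a receptor for sphingosine 1-phosphate found on astrocytes and on endothelium, and lies on the minus strand of chromosome 3, from 115710433 to 115715055. A weak peak of 61 bases from 115714815 to 115714875 (p-value 1.1e-09) lay 180 bases after its start. The other two were strong. They ran from 115711872 to 115712142 (271 bases, 7.9e-90) and from 115711512 to 115711812 (301 bases, 1e-125), with a gap of 59 bases. No KO peak was listed for S1pr1, although 19.2% of WT peaks were as strong as its last peak or stronger.

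Gja1 encodes connexin 43, the main gap junction protein of astrocytes, and lies on chromosome 10 from 56377300 to 56390419. Its WT peak was a single block of 628 bases from 56388300 to 56388927, ending 1492 bases before the gene end. The deposited p-value is listed as 0, too small to be held, as for 764 WT peaks in all, which is 5.09% of the list. No KO peak was listed. Aqp4 encodes the water channel of astrocyte endfeet and lies on chromosome 18 on the minus strand. It too had 1 WT peak with a p-value listed as 0, of 300 bases from 15393368 to 15393667. This peak was not retained. The KO list instead held a peak of 241 bases on 2 blocks of 42 and 199 bases, from 15402801 to 15403641. It lay 9133 bases upstream of the WT peak, with a p-value of 1e-35 and rank 745 of 3673. Among the 3 KO peaks of these genes it was the strongest, as 20.3% of the KO list was as strong or stronger. A KO peak away from every WT peak was found in 8.87% of the genes with a WT peak, and here in 1 of 9. The Aqp4 peaks were thus listed at separate places, with midpoints at 37.3% (KO) and 80.9% (WT) of the gene span.

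The enzymes and the lipid carrier had the least peak length. Glul encodes glutamine synthetase, with which astrocytes turn glutamate into glutamine, and lies on chromosome 1 from 153899929 to 153909723. It had 2 WT peaks and no KO peak. Of the first, the entry named Glul began at the first base of the gene and ran from 153899929 to 153900019 (91 bases, p-value 1e-103). An overlapping entry ran from 153899926 to 153900036 (111 bases, 1.6e-75) and carried the name of a microRNA gene, Mir8114, whose annotated hairpin has exactly these borders. Both entries were merged into 1 peak, which begins 3 bases before the gene. The name column thus gives this stretch to both genes, and reads from the 2 annotations cannot be told apart there.

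The sequence at this start is shown because the Glul entry begins there. It covers chr1:153899899-153899958 on the plus strand (RefSeq, GRCm38.p6), with capitals for the first 30 bases of the gene, all under the WT peak. The mature microRNA lies inside the same peak, at chr1:153899989-153900009, and is shown with its seed, bases 2 to 8, in capitals.
Glul start: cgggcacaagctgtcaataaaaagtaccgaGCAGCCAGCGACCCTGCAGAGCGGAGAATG
mmu-miR-8114: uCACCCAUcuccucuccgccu

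Of the 10 genes, 8 were found in the RefSeq table of promoter windows of 300 bases, and Glul alone had a WT peak reaching into its window. A narrower count asked for a WT peak over the first 50 transcribed bases, among genes of that table with a WT peak. It held for 1 of 7 described genes, Glul, and for 674 of all 6071 (11.1%). The second Glul peak, from 153907932 to 153908171 (240 bases, p-value 1e-124), lay late in the gene, with its midpoint 1671 bases before the gene end. Of all WT peaks, 23.7% were as strong as the first Glul peak or stronger, and 19.4% as strong as the second.

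Aldh1l1 encodes a folate enzyme widely used as a general astrocyte marker and lies on chromosome 6 from 90550768 to 90599171. Its WT and KO peaks adjoined rather than coincided. The WT peak ran over 3 blocks of 20, 120 and 10 bases from 90569921 to 90571876 (p-value 3.2e-19). The KO peak ran over 2 blocks of 22 and 129 bases from 90569543 to 90569921 (p-value 2.5e-14). They shared 1 base, 90569921, and together covered 300 exonic bases. The peak counts as retained by the rule of 1 base, and is not retained when 10 shared bases are asked for, a setting chosen after seeing the data. Of the 1933 retained WT peaks of the whole list, 30 shared exactly 1 base. With 10 bases asked for, Nes was the only gene of the 10 with a retained peak, while 1902 WT peaks of the whole list stayed retained. With 50% of the WT peak asked for there was none in the 10 genes, and 979 in the whole list. In summed length Aldh1l1 was the only gene of the 9 whose KO value (151 bases) was not below its WT value (150 bases).

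Fabp7 encodes the brain fatty acid binding protein of radial glia and lies on chromosome 10 from 57784923 to 57788450. It had 1 WT peak of 89 bases on blocks of 69 and 20 bases, from 57785610 to 57786284 (p-value 4e-48), and no KO peak. Fabp7 ranked low in peak length, as 94.9% of genes with a WT peak had as much or more. Aldoc encodes the brain aldolase of glycolysis, on chromosome 11 from 78323073 to 78327781. It had no peak in either list. Without expression values or depth, a missing peak does not show that Aldoc RNA lacks m6A.

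The WT peaks of these genes were typical of the list in width and differed from one another in strength. Their median exonic width was 240 bases (range 60 to 1196), against 208 bases for all WT peaks. The median peak length per gene was 351 bases, against 355.5 over all genes with a WT peak. On 2 or more exonic blocks lay 3 of the 19 peaks, those of Gfap, Aldh1l1 and Fabp7, against 23.5% of all WT peaks. The median p-value was 4e-48, and 13 of the 19 peaks were stronger than the median of the list. Near the gene start, within 200 bases, lay the midpoints of 2 peaks, in Gfap and Glul. No share over all WT peaks is given for this window, so the count is a description only. Within 1000 bases of the gene end lay 1 midpoint, that of the last Nes peak at 986 bases, against 16.5% of WT peaks. Just outside this window were the late peaks of S1pr1 at 1229 and 1574 bases, Nes at 1449, Glul at 1671 and Gja1 at 1805.

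The strongest peaks of these genes were without a KO counterpart. In the strongest of 5 equal classes of WT peaks lay 5 of the 19 peaks, those of Gja1 and Aqp4, the last peaks of S1pr1 and Glul and the widest of Nes. None of the 5 was retained, while 30.9% of all 3002 peaks in that class were. The retained peaks of Nes and Aldh1l1 fell in the third and the fourth class, in which 9.49% and 6.4% of all peaks were retained. Over all genes, the share with a retained peak also differed by the number of WT peaks per gene. Of all genes with a single WT peak, 10.5% had it retained. A retained peak was found in 22.8% of genes with 2 WT peaks, 33.8% of those with 3 and 46.0% of those with 4 or more. Of the 5 described genes with a single peak this held for Aldh1l1, by 1 base, and of the 3 genes with 2 or 3 peaks for none. With 19 peaks in 9 genes these counts describe the genes, and no difference from the list was tested.

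**Figure D4:**
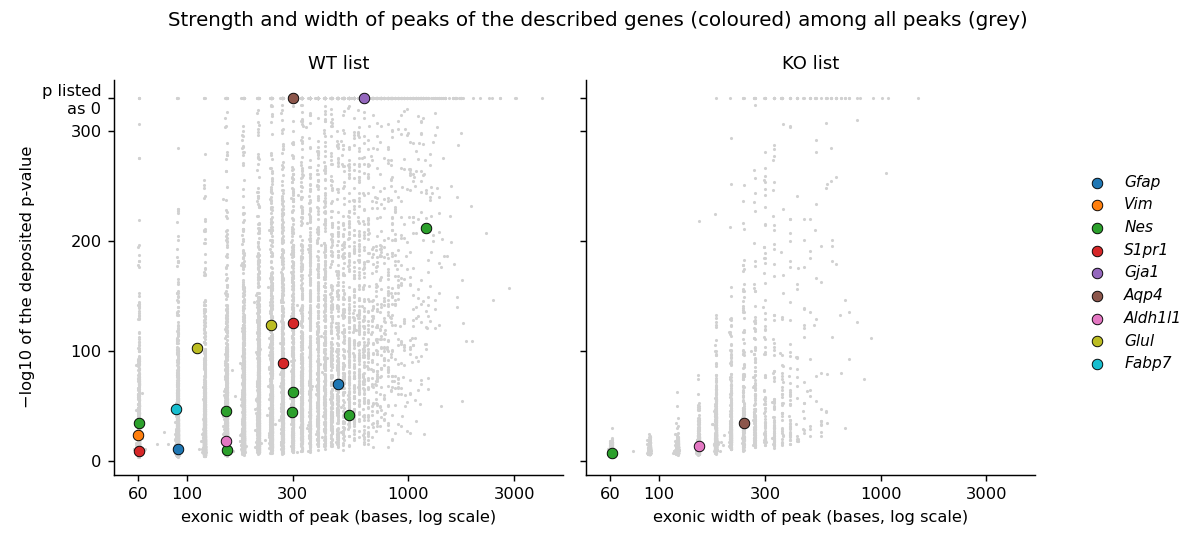
Exonic width in bases (log axis) against −log10 of the deposited p-value for all peaks (grey) and for peaks of the described genes (coloured by gene) in the WT (left) and KO (right) list; the top row holds peaks whose p-value is listed as 0. Gja1 and Aqp4 sit in the top row of WT, Nes spans from 61 to 1196 bases, and of the 3 KO peaks that of Nes lies low, that of Aldh1l1 near the middle and that of Aqp4 in the stronger part of the list.

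Other genes of the same cells were examined in a list of 81 further astrocyte and radial glia genes. Of these, 55 had a WT peak (67.9%, interval 57.1 to 77.1) and 15 of the 55 a retained one (27.3%, interval 17.3 to 40.2). The whole list gave 34.3% and 20.6%. By peaks, 17 of 104 were retained (16.3%, interval 10.5 to 24.6). The median WT peak length per gene was 361 bases. With at least 50% of both peaks shared, 12 of the 55 genes still had such a peak, against 10.9% of all genes with a WT peak and none of the 10 genes described above. The sets of 9 and 55 genes were not tested against each other.

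Transcription factors of radial glia and astrocytes had a retained peak in 5 of 16 genes with a WT peak (31.2%, interval 14.2 to 55.6), against 20.6% of all genes with a WT peak. The shares of the 5 roles described here have wide intervals that all hold this value. In Sox9, a factor of gliogenesis, the WT peak from 112785163 to 112785282 on chromosome 11 was covered in full by a KO peak. It was the weaker of 2 WT peaks (1.6e-14 against 2.5e-79), so the stronger was not retained. Sox2, which maintains neural progenitors, kept 149 of 239 bases of its first peak, and its second peak of 1159 bases had no KO counterpart. Emx2, a patterning factor of the cortex, kept 180 of 419 bases, and Id4, an inhibitor of bHLH factors, 210 of 269. Nfib, a nuclear factor I gene of gliogenesis, retained 1 of 4 peaks. Sox21 had 4 WT peaks and Sox1 had 3, none of them retained. Gli3, a transducer of Hedgehog signals, and Nfia, named after their values were seen, had a KO peak away from their WT peaks, by 839 and 2575 bases. Sox9 also had a further KO peak, 1264 bases from its nearest WT peak.

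Receptor and adhesion genes had a retained peak in 2 of 14 genes (interval 4.01 to 39.9%). Notch2, a receptor that maintains progenitors, retained the last of 8 peaks, by a KO peak of 61 bases. Cdh2, which encodes N-cadherin of the radial glial junctions, kept 91 of the 150 bases of its only peak. Ptprz1, a receptor phosphatase of radial glia, had 3 WT peaks and no KO peak. Transporters and channels had a retained peak in 3 of 7 genes (interval 15.8 to 75.0%). Ttyh1 kept 151 of 211 bases. The 2 main glutamate transporters of astrocytes differed. Slc1a3 (GLAST) kept 150 bases of its upstream peak, while its downstream peak, with a p-value listed as 0, was not retained. Slc1a2 (GLT-1), named after its values were seen, retained neither of 2 peaks and had a KO peak 2872 bases away. Kcnj10, the inward rectifier channel of astrocytes, had 4 WT peaks over 1110 bases and no KO peak.

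Metabolic and lipid genes also had one in 3 of 7, with the same interval. Dio2, which activates thyroid hormone, had a peak of 211 bases on chromosome 12 from 90738828 to 90739038 with the same borders in both lists. In both lists this peak began at the annotated gene start, so that border may reflect the annotation. Its 2 further WT peaks were not retained. Plpp3, a lipid phosphatase, kept 90 of 269 bases. The lipid transport gene Apoe had a WT peak of 689 bases met by KO peaks of 390 and 61 bases. Secreted and matrix genes, grouped with the intracellular astrocyte genes Daam2 and Ndrg2, had a retained peak in 2 of 11 (interval 5.14 to 47.7%). Ncan, which encodes the proteoglycan neurocan, retained 3 of 4 peaks, and its length went from 1862 to 422 bases. Sparcl1, which encodes the synapse-promoting protein hevin, kept 571 of 751 bases, with a KO p-value of 1e-252. Bcan, which encodes the related proteoglycan brevican, had 3 WT peaks and no KO peak. Aldh1a1 and Thbs1, named after their values were seen, had a KO peak and no WT peak.

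Markers of other cells in the samples bear on genes such as Vim, S1pr1 and Nes, which vessels also express. WT peaks were listed for 10 of 14 endothelial and mural markers, 2 of 8 meningeal, 3 of 10 ependymal and choroid plexus, and 6 of 12 microglial markers. A retained peak was found in 2 of the 10, 0 of the 2, 0 of the 3 and 2 of the 6. The share over all genes with a WT peak was 20.6%. By number of WT peaks, and with ties by length, each list was led by Slc2a1 (4 WT peaks) and Cdh5 (3), Foxc1 (3) and Col3a1 (1), Foxj1 (4) and Clic6 (1), and Sall1 (3) and Cx3cr1 (2). Of these 8 genes, Cdh5 had 2 retained peaks, Cx3cr1 had 1 and the other 6 had none. How far such cells contribute to the peaks of the 10 genes was not tested. Neuron markers had a retained peak in 7 of 9 genes with a WT peak, with 2 of 5 peaks in Elavl3 and 2 of 4 in Map2. These neuron genes had a median of 3 WT peaks per gene, and of all genes with 3 WT peaks 33.8% had a retained one, against 20.6% of all genes with any number. Whether peak number bears on the neuron share was not tested. Oligodendrocyte lineage markers had none in 9, where the interval reaches up to 29.9%, with 7 WT peaks in Cspg4 and 3 in Olig1. Their median was 2 WT peaks per gene, and of all genes with 2 WT peaks 22.8% had a retained one. The astrocyte and radial glia genes lay between the neuron and oligodendrocyte lists, at 2 of 9 and 15 of 55, and the lists were not tested against each other.

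**Figure D5:**
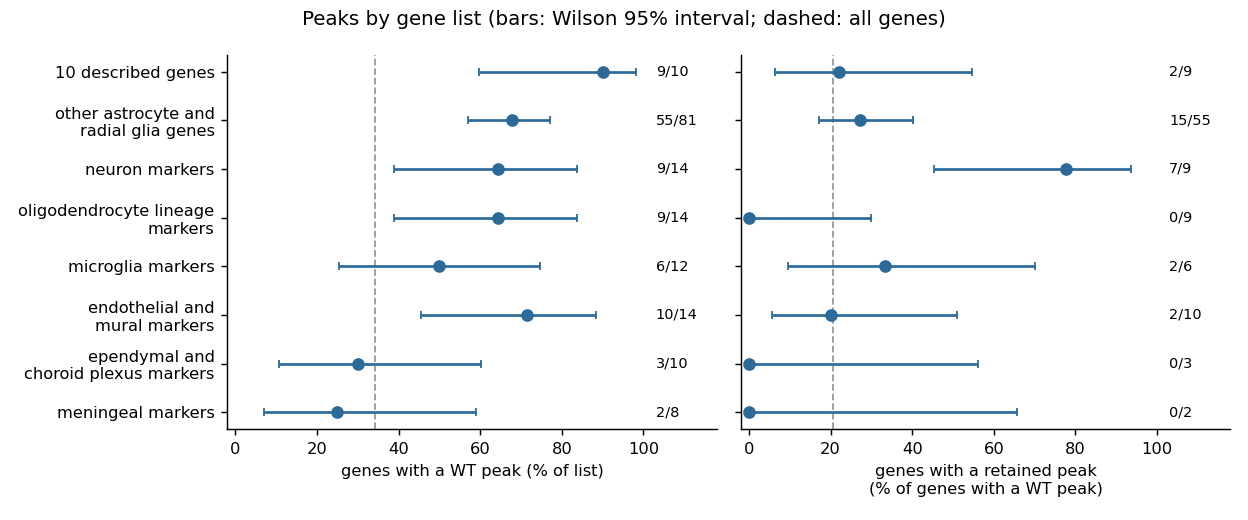
Share of genes with a WT peak (left) and, among these, with a retained peak (right) for each gene list, in percent; points are shares, bars Wilson 95% intervals over genes, numbers at the right the counts, and dashed lines the shares over all protein-coding genes (left) and all genes with a WT peak (right). The 10 described genes stand at 9 of 10 and 2 of 9, the latter close to the dashed line at 20.6%.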

How the data were processed

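Polyadenylated RNA, immunoprecipitated or input, was sequenced from 10 samples, grouped by the genotype and treatment labels. Per the submitters' processing notes, reads were mapped with STAR to GRCm38. No source used here names the peak caller, its threshold or how libraries were combined. The authors deposited 1 consensus peak list per genotype, with positions, a strand, a gene name, exonic blocks and other descriptive columns. The deposited score was read as a p-value or q-value, since no score exceeded 0.00015 in WT or 4.4e-06 in KO. No header says which. It is the authors' own value, used to rank and describe peaks within a list. Starts count from 0, since 199 WT entries start 1 base below their gene. All printed positions count from 1.

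Entries of a list sharing exonic bases on the same strand were merged, from 15091 to 15009 in WT and from 3733 to 3673 in KO. Names were updated through a RefSeq table of GRCm38.p6 (99.9% of genes matched), which also gave gene spans. Merging and overlap were tested on simulated peaks. Wilson intervals used SciPy 1.17.1 in Python 3.11.15. The 10 genes, the 81 further genes and the marker lists were chosen with earlier results of these data known. Named were the 10 genes, the further genes with a retained peak, the 5 others with most WT peaks, up to 2 per marker list, and the 3 genes most like Nes. Exceptions are named in place, and 1 gene under this rule is not reported here. Alternatives covered the overlap rule, strand, merging, naming, list length and strength.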

Additional observations from a re-analysis of the deposited data

How the results depend on the processing

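No paired analysis was possible because each genotype has a single consensus list. For that reason no replicate could be left out either. Gaps of up to 100 bases, whole spans, overlap on either strand, unmerged entries and assignment by gene span each kept the counts of retained peaks in the 10 genes, and of genes with a retained peak among these and the 81 further genes, within 1.5 times. Unmerged entries and assignment by gene span did so for numbers and lengths of peaks of the 10 genes too. Asking for 50% of the WT peak, or of both peaks, took the 10 genes from 2 retained peaks in 2 genes to 0 in 0, and 10 shared bases, chosen after seeing the data, to 1 in 1. Neither retained peak shared more than 11.3% of its length. In the stronger 50% of each list, genes with a KO peak went from 3 to 1, retained peaks and genes to 0, KO length from 453 to 241 bases, and further genes with a retained peak from 15 to 8. Shortening the WT list to the KO number gave 5 genes with 6 WT peaks over 2776 bases, 0 retained peaks, 0 retained genes, and 19 further genes with a WT peak, 7 with a retained one. These settings remove peaks by construction. Midpoints near the gene end numbered 1 within 1000 bases, 0 within 500 and 14 within 5000. Depth limits what an absent peak can show, and it is unknown here.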

Other observations

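In genes with several WT peaks of which exactly 1 was retained, the place of that peak varied. Among the astrocyte and radial glia genes there were 7 such genes. The retained peak was the first from the 5′ end in Sox9, Sox2, Nfib, Slc1a3 and Dio2, the last in Notch2 and the third in Nes. Over all 908 such genes it was the first in 43.1% and the last in 33.9%. An even spread over the peaks of each gene corresponds to 37.5% for these genes and to 33.6% for the 7. This was looked at after the values of the 7 genes were seen, and no test was run.

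Peak widths moved in steps. Of single-block peaks, 91.0% in WT and 96.0% in KO had a width within 1 base of a multiple of 30, as did 14 of the 17 single-block peaks of the 10 genes. The 61-base peaks of Nes and S1pr1 and the 60-base peak of Vim thus lay 1 or 2 bases above the narrowest single-block width of either list, 59 bases.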
